A study of Arabidopsis thaliana with 18 samples.

Results

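Wild-type (WT) hypocotyls of Arabidopsis thaliana after 24 h in light were compared with WT hypocotyls in darkness (0 h). The hypocotyl is the seedling stem between the root and the cotyledons. Poly-A RNA was sequenced from 3 libraries of each of these groups, 6 of the 18 libraries of a series that covers 2 genotypes, WT and hy1, at 3 times. The genotype comes from the sample descriptions, while the titles call the WT libraries mock at both times. They name no accession, seedling age, light quality or agent behind the word mock. The hy1 mutant is impaired in the haem oxygenase that makes the phytochrome chromophore, and it enters here only where a change was tested for a difference between genotypes. The labels name no hy1 allele, and HY1 transcript was at 31.6 to 36.3 CPM in hy1 at 0 h and 18.4 to 19.4 CPM at 24 h, so its level does not check the genotype. None of the 18 libraries is labelled as kept dark for 24 h, so that an effect of light cannot be told apart from that of time passed, seedling age or hour of the day. Nothing in the labels says whether replicates were grown separately, and p-values therefore measure only how far these libraries differ, which may be technical.

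All 32833 genes of the count table were taken, and 20955 of them passed the filter on low counts and were tested. Levels are in CPM, counts scaled to a common library size without correction for gene length. Where genes are compared with each other, levels are in TPM, which also corrects for gene length. Changes are log2 fold changes, 24 h over 0 h, from an edgeR quasi-likelihood fit. The ± value of a change is an approximate standard error, its size divided by the square root of its F statistic. A gene rose or fell when its p adjusted over all tested genes was under 0.05. In whole-tissue RNA, fewer cells of a type and less RNA per cell cannot be told apart.

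A seedling that germinates in darkness is etiolated. Its hypocotyl elongates fast by cell expansion, with the PIF transcription factors, auxin, brassinosteroid and gibberellin promoting growth, and the plastids remain without chlorophyll. Light acts through phytochromes, cryptochromes, phototropins and the ultraviolet receptor, PIF proteins are degraded, and the factor HY5 accumulates. Elongation slows, chloroplasts are built, and flavonoids that absorb ultraviolet light are made. Darkness also starves the seedling of sugar, and amino acids are then broken down for energy.

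The 6 libraries held 41028875 to 49547963 counts each. WT 24 h replicate 3 stood apart: across genes it correlated with the other WT 24 h libraries at r = 0.9713 and 0.9675, while those correlated with each other at 0.99 and the WT 0 h libraries at 0.9881 to 0.9895, genes not being independent replicates. It correlated more with WT 12 h replicate 3 (r = 0.9808), and WT 12 h replicate 1 more with WT 24 h replicates 1 and 2 (0.9824 and 0.9792) than with the other 12 h libraries (0.9475 and 0.9681). Some single genes followed the labelled times, CASP1 and RVE8 among them, as given further on. Others did not. AZI1 was at 3670, 14957 and 8709 CPM at 12 h and 3746, 4048 and 9140 CPM at 24 h. EXT4 was at 1228, 9207 and 3828 CPM at 12 h and 2238, 1698 and 4908 CPM at 24 h. In both, replicate 1 at 12 h lay closest to a 24 h library, and replicate 3 at 24 h to a 12 h library. WT 24 h replicate 3 held less photosynthesis RNA and more of PYK10, AZI1 and EXT4, and each list is given with and without it. Plastid-encoded genes took at most 0.00334% of a library. Markers were fixed for single tissues and cell types, any of which the bulk hypocotyl sample could hold. The 8 seed storage markers summed to 0.312 to 0.427 CPM in the dark and 0.326 to 0.497 CPM in light, and the 7 root hair markers to 0.289 to 2.66 and 0.149 to 0.476 CPM. The 7 endodermis markers summed to 413 to 512 CPM in the dark and 45.2 to 77.8 CPM in light, the 5 shoot meristem markers to 19.9 to 29.1 and 4.14 to 10.4 CPM, with WUS at or near 0 throughout, and the 8 guard cell markers to 14 to 16.7 and 10.3 to 16.2 CPM. Most of the shoot meristem sum was STM, at means of 22.75 and 5.96 CPM. Within the guard cell sum KAT1 went from a mean of 10.32 to 1.38 CPM and MYB60 from 1.36 to 7.39 CPM. The 4 root meristem markers found (PLT1, PLT2, WOX5 and RGF1) summed to 0.761 to 1.14 CPM and 2.54 to 3.76 CPM, highest in WT 24 h replicate 3. Root cap markers fixed with them were not matched to the annotation, so the root cap was not checked. The 2 trichome markers summed to 9.63 to 11.6 and 1.29 to 2.02 CPM, mostly from GL2 (means of 10.3 and 1.4 CPM). No marker specific to the hypocotyl was available to check the label. The part of these or other tissues in the results was not tested.

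After 24 h in light 5159 genes had risen and 4842 had fallen, 47.7% of the genes tested (24.6% higher and 23.1% lower). These last 2 shares are the background for the counts of every gene list below. The median log2 fold change over all tested genes was 0.02. Called changes had a median size of 0.88 on the log2 scale, and 923 of the rises and 919 of the falls reached 4-fold. At 16-fold or more there were 191 rises and 263 falls. The 3 libraries of one group lay wholly above or below those of the other in 58.3% of tested genes. Without WT 24 h replicate 3, 45.0% of genes were called, and 8595 of the 10001 called before were called again in the same direction. With WT 12 h replicates 2 and 3 also left out, 58.2% were called, 9630 of them as before.

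**Figure D1:**
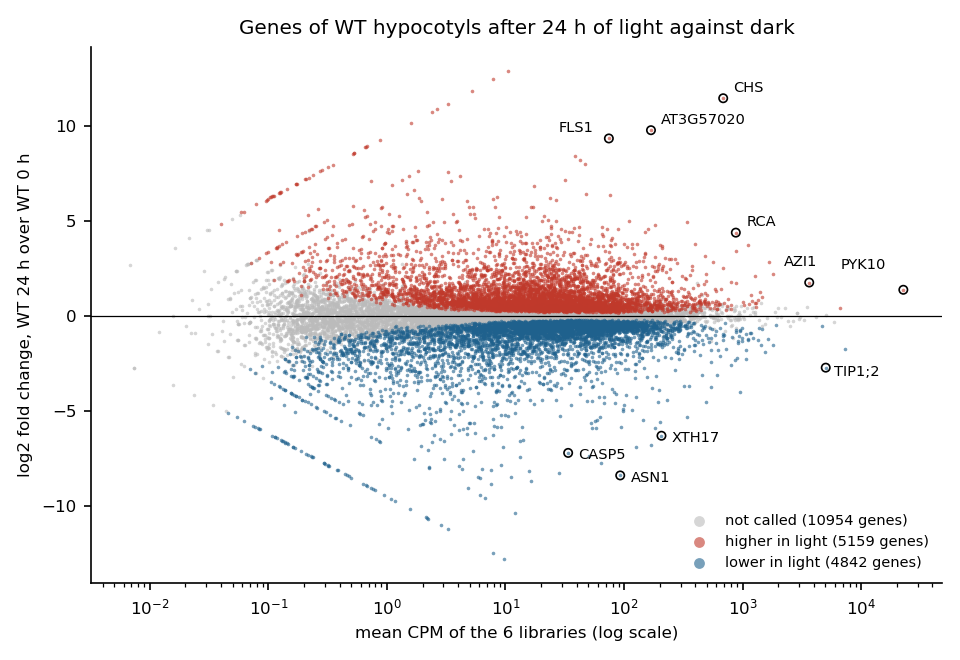
Each point is one of the 20955 tested genes, placed by its mean CPM over the 6 libraries (log axis) and its log2 fold change at 24 h over 0 h, with 5159 called rises in red, 4842 called falls in blue and the rest in grey. The slanted outer lines are genes with few or no reads in one group, whose fitted values depend on the prior count, and the ringed genes include PYK10 and TIP1;2, which lie at the high end of abundance and changed in opposite directions.

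The set of most abundant transcripts changed in part. TIP1;2, a water channel of the vacuole membrane, and CAT3, a catalase that removes hydrogen peroxide, ranked 2 and 6 among all genes per length in darkness and 32 and 34 in light, while GRP9, EXT4 and LHCB1.3 came from rank 386, 120 and 195 to rank 7, 9 and 8. PYK10 (AT3G09260), the myrosinase-like beta-glucosidase of the endoplasmic reticulum bodies of roots and seedlings, stood at 11729, 12200.2 and 13713 CPM in the dark and 27108, 28616 and 42829 CPM in light. Each light library lay above each dark one, and replicate 3 was the highest (log2 fold change 1.39 ± 0.23, adjusted p = 0.00015; 1.13 without replicate 3). Per length, PYK10 had the highest level of any gene in both groups, with 12308 ± 923 TPM in the dark and 31478 ± 10046 TPM in light (SD, n = 3).

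TIP1;2 (AT3G26520) held 11981 ± 895 TPM in the dark, second to PYK10, and 1765 ± 139.8 TPM after 24 h of light. In CPM its libraries were at 7879, 9024 and 9276 in the dark and 1339.5, 1503 and 1158 in light, without overlap (-2.71 ± 0.16, adjusted p = 2.4e-09). CAT3 (AT1G20620) went from 5898 ± 266 to 1727 ± 53.4 TPM (-1.72 ± 0.15, adjusted p = 1.5e-07). Other large losses of transcript were in the major latex protein-like gene MLP34 (AT1G70850), at 3136 ± 437 and 820.3 ± 65.5 TPM, and in AT1G12080, annotated as similar to a vacuolar calcium-binding protein, at 2108 ± 68.5 and 154 ± 61.5 TPM. The lipid-transfer family gene AT2G10940 fell from 1734 ± 104 to 104 ± 22.9 TPM (-3.99 ± 0.31, adjusted p = 4.6e-08). GRP7 (AT2G21660), a clock-regulated RNA-binding protein, fell (-1.52 ± 0.41, adjusted p = 0.0058), with light libraries at 844, 1001 and 375 CPM, replicate 3 being the lowest, and dark ones at 2079, 2243 and 2044.

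Among the gains, AZI1 (AT4G12470), a lipid-transfer family gene named for its induction by azelaic acid, was at 1744, 1599 and 1619 CPM in the dark and 3746, 4048 and 9140.4 CPM in light. Replicate 3 was the highest, and the log2 fold change was 1.77 ± 0.39 with it and 1.21 without it (adjusted p = 0.0014 and 0.01). Its neighbour in the same gene cluster, EARLI1 (AT4G12480), rose from 118, 104 and 68.8 to 894, 726 and 953 CPM (3.14 ± 0.25). The light libraries also held more of the glycine-rich protein genes GRP9 (AT2G05440), with 123, 167 and 176 against 1803, 2056 and 2298 CPM (3.73 ± 0.23, adjusted p = 2.8e-09), and AT2G05510 (2.52 ± 0.19). The extensin gene EXT4 (AT1G76930), for a structural glycoprotein of the wall, rose from 792, 606 and 508 to 2238, 1698 and 4908 CPM, with a log2 fold change of 2.21 ± 0.55, or 1.61 without replicate 3, the highest library (adjusted p = 0.0034 and 0.022). These families have near-identical copies, and reads that mapped to several places had been left out, so that the division between copies is uncertain. GRP3S (AT2G05380), a glycine-rich protein gene, was high in both groups (10823 ± 597 and 14266 ± 2216 TPM). Its call (adjusted p = 0.049) was lost when any single WT 0 h or WT 24 h library but WT 24 h replicate 3 was left out, at adjusted p of 0.074 to 0.20. The pathogenesis-related family gene AT4G23670 was at 7819 ± 1410.0 and 7828 ± 1601 TPM and was not called (adjusted p = 0.89), and nor was PBP1 (AT3G16420), a PYK10-binding lectin, at 4994 ± 361 and 4590.3 ± 1197 TPM (adjusted p = 0.86).

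Most water channel genes fell. Of the aquaporins, 14 of 20 tested members fell and the other 6 were not called (14 without WT 24 h replicate 3), with a median log2 fold change of -1.50 (-1.32 without it), beside 23.1% lower and 24.6% higher among all genes tested. Together they took 2.22%, 2.48% and 2.52% of the counts of the dark libraries and 0.795%, 0.783% and 0.547% of those of the light libraries, replicate 3 being the lowest. The tonoplast channel TIP2;1 (AT3G16240) went from 1729, 1914 and 1639 to 386, 421 and 284 CPM (-2.27 ± 0.21, adjusted p = 3.4e-07) and TIP1;1 (AT2G36830) changed by -2.08 ± 0.14. In the plasma membrane, PIP1;5 (AT4G23400) went from 1011, 1104 and 1176 to 134, 161 and 83.3 CPM (-3.12 ± 0.29), and PIP2;4 (AT5G60660) fell furthest of the aquaporins named here, from 403, 449.9 and 462 to 26.2, 23.1 and 13 CPM (-4.40 ± 0.35, adjusted p = 5e-08). The dark and light libraries of these 4 genes did not overlap. PIP1;3 (AT1G01620) (-1.80 ± 0.21) and PIP2;7 (AT4G35100) (-2.29 ± 0.17) fell as well.

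**Figure D2:**
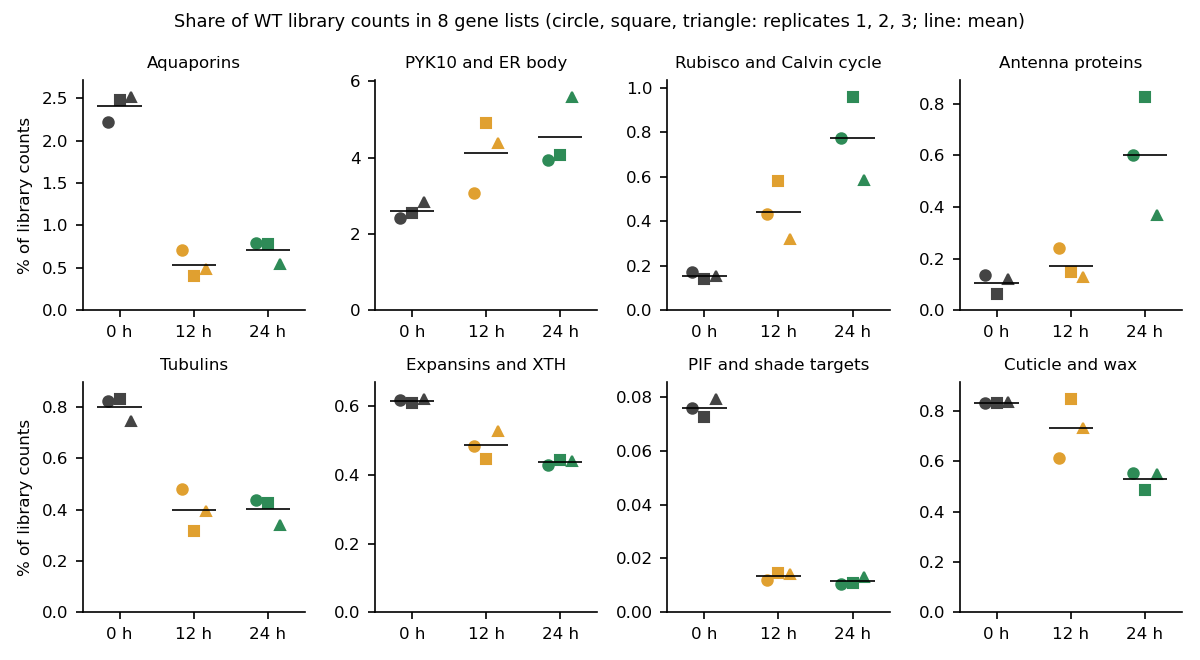
Share of each WT library's counts (percent, linear axes from 0) taken by the members of 8 gene lists at 0 h, 12 h and 24 h, with replicates 1, 2 and 3 as circle, square and triangle and a line at the mean of 3 libraries. Aquaporins fell from 2.22% to 2.52% of counts in the dark to 0.547% to 0.795% at 24 h, while antenna and Calvin cycle genes rose and were lowest among the 24 h libraries in replicate 3.

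Most wall-loosening genes were lower in light. Of expansins, which loosen the wall, and xyloglucan endotransglucosylases (XTH), which cut and rejoin its hemicellulose, 6 of 38 tested members rose and 24 fell (6 and 23 without WT 24 h replicate 3), with a median log2 fold change of -1.25 (-1.13 without it). XTH19 (AT4G30290) stood at 249, 258 and 242 CPM in the dark and 1.73, 1.64 and 2.95 CPM in light (-6.89 ± 0.35, adjusted p = 4.8e-10). XTH8 (AT1G11545) went from 179, 179 and 171 to 26.9, 28.1 and 22.6 CPM (-2.77 ± 0.14). XTH19 is alike in sequence to its neighbour XTH18 and to XTH17, which lies on another chromosome. Against the direction of the family, XTH31 (AT3G44990) rose from 494, 451 and 496 to 1969.9, 2083 and 2096 CPM (2.09 ± 0.17, adjusted p = 9.2e-08) and XTH32 (AT2G36870) from 26.2, 23.4 and 23.3 to 135, 137 and 138 CPM (2.49 ± 0.14). In light, then, XTH31 at 2525 ± 182 TPM stood far above XTH17 at 7.18 ± 0.607 TPM, while in the dark they were at 611 ± 36 and 582 ± 26 TPM. The arabinogalactan protein gene FLA9 (AT1G03870) fell from 916, 998 and 906 to 37.6, 33.3 and 51 CPM (-4.53 ± 0.38, adjusted p = 8.3e-08).

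Of the tubulins, the subunits of the microtubules that guide cellulose deposition, 13 of 15 tested members fell and the other 2 were not called (12 without WT 24 h replicate 3), with a median log2 fold change of -1.01 (-0.88 without it). TUB1 (AT1G75780) showed the largest change among those named, from 55.9, 52.9 and 41.2 to 4.34, 3.75 and 3.48 CPM (-3.69 ± 0.16, adjusted p = 8.5e-11), while the abundant TUA4 (AT1G04820) went from 1156, 1124 and 1024 to 513, 531 and 508 CPM (-1.09 ± 0.12). All 3 dark libraries lay above all 3 light ones for both. Tubulin copies are similar, so their shares of reads are uncertain. In cellulose synthesis of the primary wall, 3 of 10 tested members fell and the other 7 were not called (3 without WT 24 h replicate 3), with a median log2 fold change of -0.19 (-0.18 without it). The endoglucanase gene KOR1 (AT5G49720) changed by -0.62 ± 0.10 and the chitinase-like gene CTL2 (AT3G16920) by -0.96 ± 0.20. For the secondary wall and xylem, 13 of 17 tested members fell and the other 4 were not called (13 without WT 24 h replicate 3), with a median log2 fold change of -0.76 (-0.84 without it), and 3 of these falls reached 2-fold. CESA4 (AT5G44030), a cellulose synthase of the secondary wall, went from 77.8 ± 14.3 to 45.8 ± 5.49 CPM (-0.76 ± 0.16, adjusted p = 0.0011).

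The Casparian strip is the lignin band that seals the endodermis. Of its genes and of root hair markers, 8 of 12 tested members fell and the other 4 were not called (9 without WT 24 h replicate 3), with a median log2 fold change of -2.34 (-2.56 without it). CASP1 (AT2G36100), a scaffold protein of the strip, was at 200.3, 212 and 232 CPM in the dark, 299.5, 421 and 404 CPM at 12 h and 47, 26.6 and 39.3 CPM at 24 h, so that the 24 h libraries were the lowest (-2.51 ± 0.18, adjusted p = 2.2e-08). PER64 (AT5G42180), the peroxidase of the strip, was likewise lowest at 24 h, with 24.2, 15.3 and 18.5 CPM against 146, 157 and 159.9 CPM in the dark and 163, 238 and 160.5 CPM at 12 h (-2.99 ± 0.19).

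Most hormone genes that accompany elongation were lower in light. Among PIF and shade targets 18 of 18 tested members fell (18 without WT 24 h replicate 3), with a median log2 fold change of -2.85 (-2.85 without it). Of GH3 enzymes, which conjugate auxin, and SAUR genes, which are induced by it and promote expansion, 1 of 27 tested members rose and 24 fell (1 and 24 without WT 24 h replicate 3), with a median log2 fold change of -4.56 (-4.25 without it). SAUR50 (AT4G34760) went from 26.3, 33.8 and 31.9 to 1.85, 1.39 and 1 CPM (-4.43 ± 0.31) and SAUR16 (AT4G38860) from 14.1, 16.5 and 16.4 to 0.468, 0.149 and 0.191 CPM. SAUR genes lie in clusters of similar copies, so their reads may be divided wrongly. Against them GH3.9 (AT2G47750), at under 2 CPM in every library, rose (2.21 ± 0.50, adjusted p = 0.0017). Of the Aux/IAA repressors and auxin receptors 3 of 33 tested members rose and 22 fell (2 and 20 without WT 24 h replicate 3), with a median log2 fold change of -0.84 (-0.75 without it). IAA6 (AT1G52830) fell from 16.6, 19.7 and 20 to 0.0814, 0.199 and 0.191 CPM (-6.91 ± 0.35, adjusted p = 4.4e-10), while IAA26 (AT3G16500), with light libraries at 51, 48.2 and 28.6 CPM against 23.8, 25.3 and 25.1 in the dark, rose (0.79 ± 0.23, adjusted p = 0.01). In auxin synthesis and transport 3 of 31 tested members rose and 19 fell (4 and 19 without WT 24 h replicate 3), with a median log2 fold change of -0.80 (-0.78 without it). The efflux carrier gene PIN7 (AT1G23080) went from 225 ± 15.4 to 74.6 ± 4.94 CPM (-1.59 ± 0.11) and PIN2 (AT5G57090) from 23.4 ± 0.314 to 4.95 ± 0.703 CPM (-2.24 ± 0.18).

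Brassinosteroids are steroid hormones that drive elongation. Of their genes, 1 of 25 tested members rose and 18 fell (1 and 19 without WT 24 h replicate 3), with a median log2 fold change of -1.01 (-1.11 without it). BR6OX1 (AT5G38970), which catalyses a late step of synthesis, was at 12.5, 14.6 and 12.7 CPM in the dark and 0.244, 0.0497 and 0.143 CPM in light (-6.43 ± 0.35, adjusted p = 9.8e-10; -7.06 without WT 24 h replicate 1, the highest light library). The receptor gene BRI1 (AT4G39400) went from 319, 314 and 322 to 142, 152 and 142 CPM (-1.13 ± 0.09), and BAS1 (AT2G26710), whose product inactivates brassinosteroids, fell as well (-1.48 ± 0.12). The synthesis gene CYP90D1 (AT3G13730) was the only called rise, from 17.1, 17.1 and 16.8 to 46, 40.5 and 54.7 CPM (1.47 ± 0.14, adjusted p = 4.8e-07). PRE1 (AT5G39860), a small helix-loop-helix protein gene of the growth response, had reads in 1 light library alone, with 12.1, 10.7 and 12.1 CPM in the dark and 0, 0.0994 and 0 CPM in light.

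In gibberellin genes 4 of 27 tested members rose and 15 fell (4 and 16 without WT 24 h replicate 3), with a median log2 fold change of -0.74 (-0.58 without it). The synthesis gene GA3OX2 (AT1G80340), which makes the active hormone, rose from 0.19, 0.19 and 0.267 to 12.7, 15.3 and 22 CPM (6.25 ± 0.33, adjusted p = 6.4e-10), and GA3OX1 (AT1G15550) from 10.7, 11.4 and 11.7 to 20.2, 22.6 and 23.5 CPM (0.97 ± 0.13). Both had higher light than dark libraries throughout. GA20OX2 (AT5G51810), of the preceding step, fell (-1.98 ± 0.19), as did the genes of the DELLA repressors GAI (AT1G14920), from 69.1, 62.9 and 62.8 to 17.9, 19.1 and 14 CPM (-1.93 ± 0.13), and RGL1 (AT1G66350) (-1.98 ± 0.16, adjusted p = 5.7e-08). In the ethylene list 1 of 21 tested members rose and 14 fell (1 and 14 without WT 24 h replicate 3), with a median log2 fold change of -0.61 (-0.64 without it). Of the synthase genes that make its precursor, ACS11 (AT4G08040) went from 27, 21.4 and 24.9 to 0.896, 1.72 and 0.81 CPM (-4.43 ± 0.45, adjusted p = 8.6e-07), while ACS7 (AT4G26200) rose from 1.71, 1.24 and 1.11 to 4.42, 3.23 and 8.67 CPM (2.01 ± 0.39, adjusted p = 0.00056), highest in replicate 3.

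Most genes that dark starvation induces were lower in light. In the list of dark-induced genes and of branched-chain amino acid breakdown, 1 of 22 tested members rose and 15 fell (1 and 15 without WT 24 h replicate 3), with a median log2 fold change of -0.90 (-0.87 without it). ASN1 (AT3G47340), the asparagine synthetase that darkness and sugar starvation induce, was at 217, 154 and 185 CPM in the dark and 0.489, 0.994 and 0.191 CPM in light (-8.38 ± 0.52, adjusted p = 4e-09; -9.04 without WT 24 h replicate 2, the highest light library). The beta-glucosidase gene DIN2 (AT3G60140), the senescence-associated SEN1 (AT4G35770) and the aminotransferase gene BCAT2 (AT1G10070) changed by -8.18 ± 0.63, -4.25 ± 0.33 and -4.61 ± 0.32, with SEN1 at 92.3, 122 and 133 CPM in the dark and 3.58, 5.82 and 8.93 CPM in light. For DIN2 the value was -8.85 without WT 24 h replicate 2. No dark library of these 4 genes overlapped a light one. DIN9 (AT1G67070), a phosphomannose isomerase gene, was the member that rose, from 2.81, 2.61 and 2.71 to 4.38, 4.85 and 4.64 CPM (0.77 ± 0.18, adjusted p = 0.002). Autophagy recycles cell contents under starvation. In that list 8 of 16 tested members fell and the other 8 were not called (5 without WT 24 h replicate 3), with a median log2 fold change of -0.46 (-0.37 without it), so that the count rested in part on that library, and it was 3 without WT 0 h replicate 3. ATG8F (AT4G16520), which coats the autophagosome, went from 108, 114 and 135 to 62.4, 64.4 and 72.8 CPM (-0.84 ± 0.10, adjusted p = 3.9e-06).

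Of the nitrogen genes that changed, most rose. In nitrogen uptake and assimilation 16 of 28 tested members rose and 5 fell (15 and 5 without WT 24 h replicate 3), with a median log2 fold change of 0.71 (0.69 without it). ASN2 (AT5G65010), an asparagine synthetase that light induces, rose from 67.9, 61.8 and 47.9 to 413, 394 and 289 CPM (2.62 ± 0.19, adjusted p = 2e-08), opposite to ASN1. Per length, ASN1 stood at 119.7 ± 21.5 TPM and ASN2 at 47.2 ± 8.6 TPM in the dark, and at 0.34 ± 0.236 and 279.7 ± 39.8 TPM in light. NRT1.5 (AT1G32450), which loads nitrate into the xylem, fell from 284, 302 and 416 to 44.9, 33 and 37.1 CPM (-3.12 ± 0.17, adjusted p = 1.1e-09), and the cytosolic glutamine synthetase gene GLN1.3 (AT3G17820) from 210.4, 232 and 205 to 54.5, 54.1 and 53.8 CPM (-2.0 ± 0.11).

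Carbon transport and storage genes moved both ways. In starch and sucrose metabolism 22 of 50 tested members rose and 10 fell (23 and 9 without WT 24 h replicate 3), with a median log2 fold change of 0.26 (0.30 without it). TPT (AT5G46110), which exports triose phosphate from the chloroplast, went from 36.8, 23.1 and 30.8 to 220.0, 255 and 189.5 CPM (2.87 ± 0.18, adjusted p = 3.6e-09). APS1 (AT5G48300), the small subunit of the enzyme that commits glucose to starch, rose (2.16 ± 0.13), while APL4 (AT2G21590), a large subunit of the same enzyme, fell (-2.16 ± 0.25). Of the sugar carriers, the sucrose exporter gene SWEET11 (AT3G48740) fell from 334, 383 and 462 to 139.6, 127 and 118 CPM (-1.62 ± 0.14) and the vacuolar fructose carrier gene SWEET17 (AT4G15920) rose from 27.2, 35 and 33.9 to 128, 144 and 173 CPM (2.21 ± 0.18). In the list of oil reserve use and the glyoxylate cycle, 3 of 23 tested members rose and 3 fell (5 and 4 without WT 24 h replicate 3), with a median log2 fold change of -0.06 (0.01 without it). At 13.0% each, these counts were below the 24.6% higher and 23.1% lower among all genes tested. The member that fell most was ICL (AT3G21720), isocitrate lyase of that cycle, at 22.5, 19.7 and 47.3 CPM in the dark and 3.73, 4.97 and 2.81 CPM in light (-2.96 ± 0.38). KAT5 (AT5G48880), a thiolase of peroxisomal beta-oxidation, rose (4.16 ± 0.40), as did PMDH2 (AT5G09660), a peroxisomal malate dehydrogenase (3.15 ± 0.50).

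Nearly the whole set of nuclear genes for the photosynthetic apparatus rose. Of the antenna proteins that bind chlorophyll, 18 of 20 tested members rose and the other 2 were not called (19 without WT 24 h replicate 3), with a median log2 fold change of 2.31 (2.63 without it). They took 0.135%, 0.064% and 0.123% of counts in the dark and 0.603%, 0.827% and 0.37% in light, and light replicate 3 was the lowest of its group yet above every dark library. LHCB5 (AT4G10340), an antenna of photosystem II, stood at 63.2, 35.7 and 53.8 CPM in the dark and 349, 470.0 and 216 CPM in light (2.76 ± 0.31, adjusted p = 2.5e-06; 2.98 without replicate 3). LHCB1.3 (AT1G29930) was the most abundant antenna gene named, going from 586 ± 282 to 4049 ± 1316 TPM, with near-identical copies that share its reads. Of the photosystem core and electron transport 32 of 34 tested members rose and the other 2 were not called (33 without WT 24 h replicate 3), with a median log2 fold change of 2.62 (2.79 without it). LFNR1 (AT5G66190), ferredoxin-NADP reductase, rose from 24.3, 20.9 and 23.4 to 150.0, 179 and 128 CPM (2.73 ± 0.13, adjusted p = 2.2e-10), and the oxygen-evolving protein gene PSBO2 (AT3G50820) from 6.78, 5.08 and 7.14 to 128, 169.9 and 77.7 CPM (4.3 ± 0.33).

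Carbon fixation rose more than the light reactions by the median of its list, a difference that was not tested. Of Rubisco and the Calvin cycle, 18 of 21 tested members rose and 1 fell (19 and 1 without WT 24 h replicate 3), with a median log2 fold change of 3.27 (3.46 without it). SBPASE (AT3G55800), sedoheptulose bisphosphatase, went from 14.8, 8.76 and 10.14 to 156, 196 and 119 CPM (3.81 ± 0.25) and GAPB (AT1G42970), a subunit of the chloroplast glyceraldehyde phosphate dehydrogenase, from 15.2, 9.45 and 14.4 to 307, 398 and 222 CPM (4.56 ± 0.32, adjusted p = 1.2e-08). RBCS1B (AT5G38430), a small subunit of Rubisco, was at 0.381, 0.142 and 0.334 CPM in the dark and 90.2, 128 and 35.6 CPM in light, replicate 3 being the lowest (8.20 ± 0.65; 8.54 without it). The regulatory protein gene CP12-3 (AT1G76560) was at 8.68, 8.43 and 8.96 and 4.87, 4.33 and 7.31 CPM and fell (adjusted p = 0.01), a call lost without WT 24 h replicate 1 (adjusted p = 0.051) or 2 (0.056). In photorespiration 12 of 13 tested members rose and the other was not called (11 without WT 24 h replicate 3), with a median log2 fold change of 1.92 (2.11 without it). SHM1 (AT4G37930), the mitochondrial serine hydroxymethyltransferase, rose from 31.7, 29 and 29.3 to 381, 438 and 355 CPM (3.70 ± 0.15, adjusted p = 5.3e-11).

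In tetrapyrrole and chlorophyll synthesis 19 of 24 tested members rose and 1 fell (20 and 1 without WT 24 h replicate 3), with a median log2 fold change of 1.33 (1.46 without it). CRD1 (AT3G56940), of the cyclase that closes the chlorophyll ring, went from 32.5, 20.7 and 28.9 to 247, 298 and 269 CPM (3.31 ± 0.20). The member that fell, PORA (AT5G54190), the protochlorophyllide reductase of etiolated seedlings, was at 12.1, 1.52 and 15.3 CPM in the dark and 0, 0.0497 and 0 CPM in light. Dark replicate 2 was low, and the 3 light libraries held 2 counts in all, which may be the mates of 1 fragment. Its level in the dark was 633-fold (95% exact Poisson interval of the counts 175 to 5226) that in light. That interval takes counts as independent. Each mate was counted, and 73.7% to 75.7% of gene counts from 1 to 10 were even in the 6 libraries, so it is too narrow. The ELIP and one-helix proteins shield the forming membranes from excess light, and 7 of 7 tested members rose (7 without WT 24 h replicate 3), with a median log2 fold change of 3.74 (4.05 without it). OHP2 (AT1G34000) rose from 4.07, 4.18 and 4.36 to 40, 43.5 and 67.7 CPM (3.58 ± 0.24) and ELIP2 (AT4G14690) from 1.12, 1.26 and 1.25 to 43.6, 49.6 and 24.7 CPM (5.02 ± 0.40). For carotenoids, pigments of the antenna, 13 of 19 tested members rose and 3 fell (13 and 3 without WT 24 h replicate 3), with a median log2 fold change of 0.79 (0.76 without it). The hydroxylase gene LUT5 (AT1G31800) changed by 3.28 ± 0.18 and the cyclase gene LUT2 (AT5G57030) by 2.27 ± 0.13. The members that fell include NCED3 (AT3G14440), which cleaves carotenoids to make abscisic acid, from 15.3, 15.8 and 17.35 to 2.22, 1.37 and 2 CPM (-3.11 ± 0.27, adjusted p = 1.6e-07), and NCED5 (AT1G30100), at under 3 CPM throughout.

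Of the factors of chloroplast development, 11 of 16 tested members rose and 1 fell (13 and 1 without WT 24 h replicate 3), with a median log2 fold change of 1.45 (1.32 without it). Sigma factors direct the plastid RNA polymerase. SIG5 (AT5G24120) rose from 1.14, 0.807 and 1.25 to 41.4, 43.3 and 39.4 CPM (5.27 ± 0.16, adjusted p = 3e-12), SIG6 (AT2G36990) by 2.73 ± 0.18, SIG2 (AT1G08540) by 2.0 ± 0.13 and SIG3 (AT3G53920) by 1.58 ± 0.16, each without overlap. GLK1 (AT2G20570), a transcription factor that activates antenna genes, went the other way, from 12.8, 12.7 and 13.8 to 4.52, 4.35 and 3.55 CPM (-1.66 ± 0.23, adjusted p = 1.9e-05).

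**Figure D3:**
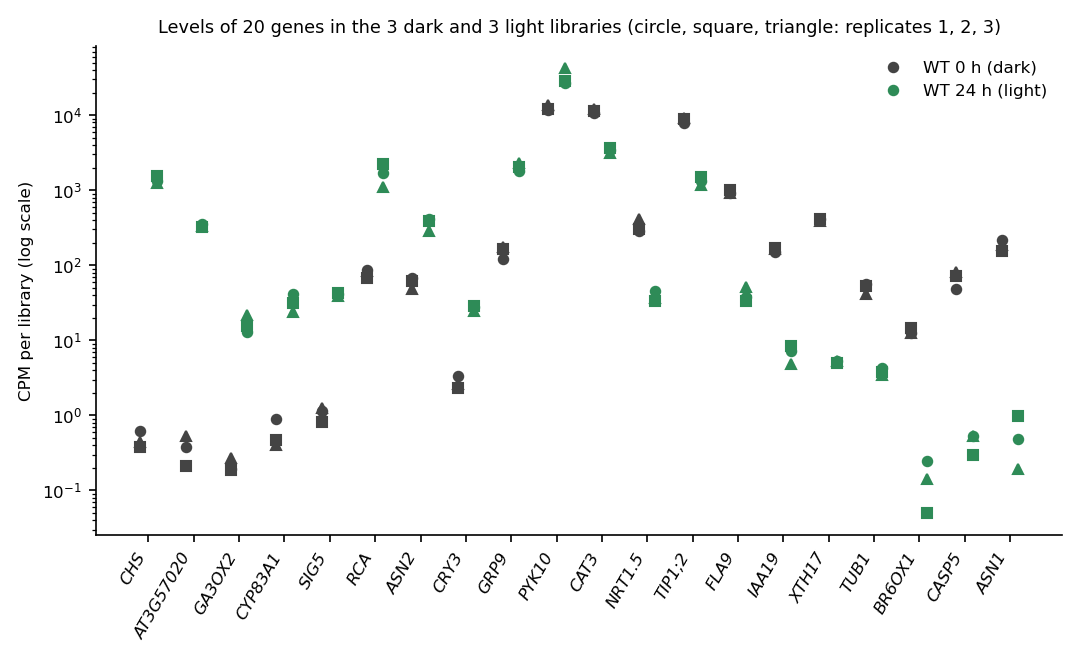
CPM of 20 genes in each of the 3 dark (grey) and 3 light (green) WT libraries, on a log axis, with replicates 1, 2 and 3 as circle, square and triangle. Groups do not overlap for any of the genes drawn, from CHS, at under 1 CPM in the dark and above 1200 CPM in light, to ASN1, at above 150 CPM in the dark and under 1 CPM in light.

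Most flavonoid enzymes rose. In the list 16 of 22 tested members rose and 1 fell (16 and 1 without WT 24 h replicate 3), with a median log2 fold change of 3.33 (3.36 without it, and 3.19 with members lacking dark reads at their bounds). CHS (AT5G13930), chalcone synthase at the entry of the pathway, had libraries at 0.618, 0.38 and 0.445 CPM in the dark and 1343, 1544 and 1229.8 CPM in light, and at 12 h it had been higher still, at 4375, 3278 and 3758 CPM. CHIL (AT5G05270), a chalcone isomerase-like protein, rose from 4.66, 3.54 and 2.82 to 51.3, 63.5 and 50.2 CPM (3.9 ± 0.23, adjusted p = 2.1e-09). The lyase gene PAL4 (AT3G10340), of the general phenylpropanoid pathway, fell from 278, 294 and 279.9 to 108, 101 and 98 CPM (-1.47 ± 0.11). Of the regulators, 6 of 13 tested members rose and 1 fell (4 and 2 without WT 24 h replicate 3), with a median log2 fold change of 0.63 (0.37 without it). MYB12 (AT2G47460), an activator of flavonol synthesis, rose from 0.856, 0.76 and 1.18 to 14.8, 15 and 13.2 CPM (3.94 ± 0.24), while MYBL2 (AT1G71030), a repressor of anthocyanin synthesis, fell from 27.8, 36.8 and 33.6 to 4.93, 6.44 and 8.79 CPM (-2.29 ± 0.30).

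Among the largest rises were genes outside the lists. Of those with reads in the dark, the first by fold was AT3G57020, annotated in the strictosidine synthase-like phosphotriesterase family, with 0.381, 0.214 and 0.534 CPM in the dark and 352, 321 and 339 CPM in light (9.79 ± 0.23, adjusted p = 2.2e-13). The short-chain dehydrogenase gene SDR1 (AT3G61220) went from 0.19, 0.237 and 0.222 to 77.2, 81.5 and 71.7 CPM (8.45 ± 0.17), AT1G64500, of the glutaredoxin family, from 1.86, 1.04 and 2.58 to 140.4, 141 and 172 CPM (6.37 ± 0.29), and AT3G56290 from 0.547, 0.19 and 0.334 to 85.1, 97.2 and 100.5 CPM (8.04 ± 0.23). For these 4 genes every light library, replicate 3 included, lay above every dark one. CYP71A12 (AT2G30750), a cytochrome P450 of indolic defence compounds, rose from 0.761, 0.0475 and 0.089 to 37, 32.9 and 32.7 CPM (6.84 ± 0.69, or 8.89 without WT 0 h replicate 1, the highest dark library).

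In the list of photoreceptors 4 of 14 tested members rose and 5 fell (4 and 5 without WT 24 h replicate 3), or 28.6% and 35.7% beside 24.6% and 23.1% of all genes tested, and the falls were 3 at an adjusted p under 0.01 or at a fold of at least 2. Its counts were thus near the background, and its median log2 fold change was -0.06 (-0.04 without that replicate). PHYA (AT1G09570), the phytochrome of etiolated seedlings, fell from 518, 476 and 507 to 159, 157 and 122 CPM (-1.77 ± 0.16, adjusted p = 2.6e-07). PHOT1 (AT3G45780), a phototropin active in dim blue light, fell from 341, 263 and 246 to 98.3, 101 and 112 CPM (-1.45 ± 0.14), and its relative for strong light, PHOT2 (AT5G58140), rose from 24.2, 19 and 21.5 to 116, 126 and 129.9 CPM (2.52 ± 0.13). Per length PHOT1 went from 138 ± 26.5 to 48.9 ± 5.99 TPM and PHOT2 from 5.37 ± 0.702 to 29.8 ± 2.93 TPM. CRY3 (AT5G24850), a cryptochrome-like protein of the organelles, rose from 3.38, 2.33 and 2.62 to 27.8, 28.6 and 24.3 CPM (3.28 ± 0.16, adjusted p = 3.7e-10). Among light signalling factors 21 of 39 tested members rose and 13 fell (21 and 14 without WT 24 h replicate 3), with a median log2 fold change of 0.56 (0.49 without it). BBX25 (AT2G31380), a B-box protein, rose from 2.95, 3.23 and 2.47 to 69.1, 74.5 and 74.7 CPM (4.66 ± 0.13, adjusted p = 2e-12), and RUP2 (AT5G23730), which ends ultraviolet receptor signalling, from 6.26, 7.55 and 6.45 to 125, 138 and 114 CPM (4.22 ± 0.14). Of the phototropism genes RPT2 (AT2G30520) rose (2.66 ± 0.10) and NPH3 (AT5G64330) fell (-2.37 ± 0.17), as did PKS4 (AT5G04190) (-3.74 ± 0.16). HY1 (AT2G26670) itself was at 42.4, 44.5 and 47.9 CPM in the dark and 40.4, 43.2 and 33.9 CPM in light and was not called (adjusted p = 0.23), while HO2 (AT2G26550), a haem oxygenase-like gene (0.97 ± 0.19), and HY2 (AT3G09150), which finishes the chromophore (1.52 ± 0.24), rose.

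The G-box CACGTG is a core bound by HY5 and PIF factors, and it stood in the promoters of some genes of each direction. The 250 bases before the RefSeq gene start (TAIR10.1) were read for 32546 genes. CACGTG was found in 7.55% of the promoters of genes that rose, 8.1% of those that fell, 6.74% of tested genes that were not called and 5.9% of all promoters, and among changes of at least 4-fold in 9.1% of rises and 8.38% of falls. It is palindromic and contains ACGTG, which was in 24.4%, 24.8%, 22.2% and 21.8% of the same 4 sets. Shown here are promoters with small adjusted p among the named genes with a G-box, 1 that rose and the first 2 that fell, of windows that overlap no other annotated gene, with the G-box in capitals. CHS rose, and IAA19, an Aux/IAA gene induced by PIF factors and auxin, and PAL4 fell.
CHS promoter (chr5:4488226-4488475, plus strand): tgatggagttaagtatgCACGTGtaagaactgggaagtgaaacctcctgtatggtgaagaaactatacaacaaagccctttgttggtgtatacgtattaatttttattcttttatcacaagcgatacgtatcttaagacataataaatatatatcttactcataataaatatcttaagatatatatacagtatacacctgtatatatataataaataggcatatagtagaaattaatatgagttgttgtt
IAA19 promoter (chr3:5263751-5264000, plus strand): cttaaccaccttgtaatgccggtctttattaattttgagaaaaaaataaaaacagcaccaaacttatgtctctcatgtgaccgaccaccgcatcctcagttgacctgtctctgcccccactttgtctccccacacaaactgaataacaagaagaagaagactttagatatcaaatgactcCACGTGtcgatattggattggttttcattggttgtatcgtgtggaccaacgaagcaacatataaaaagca
PAL4 promoter (chr3:3203738-3203987, plus strand): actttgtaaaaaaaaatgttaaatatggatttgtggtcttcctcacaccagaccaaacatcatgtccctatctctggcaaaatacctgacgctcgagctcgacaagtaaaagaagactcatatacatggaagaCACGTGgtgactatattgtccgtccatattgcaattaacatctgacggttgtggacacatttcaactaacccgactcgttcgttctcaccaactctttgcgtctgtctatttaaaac
The same 6 letters thus stood before genes of opposite direction, starting 233 bases before the gene start of CHS and 70 and 117 bases before that of IAA19 and PAL4. IAA19 had libraries at 150.0, 170.3 and 167 CPM in the dark and 7.15, 8.4 and 4.91 CPM in light (-4.57 ± 0.32). CHS lies at chromosome 5, 4488476 to 4490264, and IAA19 at chromosome 3, 5264001 to 5265695.

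Of the other motifs searched on both strands, the telo-box AAACCCTA differed most between directions. It was in 5.08% of promoters of genes that rose, 1.98% of those that fell, 3.63% of tested genes not called and 4.61% of all promoters, while among changes of at least 4-fold it was in 2.93% of rises and 3.16% of falls. GATAAG, the I-box core, was in 13% of rises, 13.4% of falls and 12.4% of all promoters (16.5% and 14.3% of rises and falls of at least 4-fold), and AATATCT, the core of the evening element, in 10.6%, 11.1% and 9.75% (13.5% and 12.6% at 4-fold), the longer AAAATATCT that contains it being in 2.72%, 2.67% and 2.23%. The auxin elements stood at 10.7%, 10.9% and 11% for TGTCTC (11.3% and 11.4% at 4-fold) and 4.79%, 4.57% and 4.1% for TGTCGG (4.55% and 3.48%). The drought element core CCGAC was in 13.3%, 11.8% and 11.7%, and among changes of at least 4-fold in 13.1% of rises and 9.58% of falls. None of these shares was tested. By list, high shares of promoters with CACGTG stood in lists that rose and in lists that fell. It was highest for seed storage proteins (53.8% of 13), where 2 of only 3 tested members fell and 10 had too few counts to be tested. Morning clock genes (45.5% of 11) followed. Flavonoid enzymes (29.2% of 24), ELIP and one-helix proteins (28.6% of 7), iron genes (26.7% of 30), evening clock genes (26.3% of 19) and antenna proteins (23.8% of 21) came next. Tubulins (20% of 15) and the abscisic acid response (18.5% of 27), with mostly falling members, also stood above the 5.9% of all promoters, while GH3 and SAUR genes were at 3.33% of 30 and 8 lists had no match. A match describes letters in this window, not a bound site.

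Some clock genes differed between 24 h and 0 h, which compares plants at times whose place in the day the labels do not give. Of the morning genes 6 of 11 tested members rose and 2 fell (5 and 2 without WT 24 h replicate 3), with a median log2 fold change of 0.42 (0.29 without it), and of the evening genes 6 of 18 tested members rose and 6 fell (4 and 6 without WT 24 h replicate 3), with a median log2 fold change of 0.05 (-0.04 without it). RVE8 (AT3G09600), a morning activator, was at 11.7, 11.1 and 14.3 CPM in the dark, 8.73, 10.9 and 7.87 CPM at 12 h and 41.1, 43 and 50.9 CPM at 24 h (1.86 ± 0.15 from dark, adjusted p = 5.2e-08). LNK3 (AT3G12320), a partner of that family, fell from 23.9, 23.5 and 26.2 to 6.72, 6.41 and 5.03 CPM (-2.02 ± 0.17). FKF1 (AT1G68050), a blue-light receptor of the afternoon, had 8.71, 8.57 and 8.52 CPM in the dark, 14.2, 9.4 and 10.7 CPM at 12 h and 3.01, 2.64 and 1.48 CPM at 24 h (-1.85 ± 0.24). LUX (AT3G46640), of the evening complex, went from 79.9, 80.2 and 87.7 to 51.2, 52.1 and 48.8 CPM (-0.70 ± 0.10).

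Abscisic acid and stress genes were mostly lower. Of the abscisic acid response 4 of 22 tested members rose and 12 fell (3 and 13 without WT 24 h replicate 3), with a median log2 fold change of -0.87 (-0.87 without it). The phosphatase gene ABI2 (AT5G57050) went from 29.3, 31.9 and 38.6 to 8.84, 11 and 9.98 CPM (-1.75 ± 0.15, adjusted p = 9.5e-08) and the dehydration-responsive RD22 (AT5G25610) from 848, 912 and 1134 to 339, 287 and 226 CPM (-1.76 ± 0.20). The cold- and abscisic acid-inducible genes KIN1 (AT5G15960) and KIN2 (AT5G15970) rose. KIN1 stood at 0.428, 0.214 and 0.667 CPM in the dark and 81.7, 86.5 and 19.9 CPM in light (7.15 ± 0.80, adjusted p = 2.1e-06), with replicate 3 the lowest of its group. Of the touch, cold and heat genes 3 of 24 tested members rose and 13 fell (3 and 13 without WT 24 h replicate 3), with a median log2 fold change of -0.81 (-0.98 without it). The calmodulin-like touch gene TCH3 (AT2G41100) fell from 85.3, 68.1 and 50.7 to 8.94, 11.5 and 8.12 CPM (-2.84 ± 0.33) and the cold regulator CBF2 (AT4G25470) from 12.4, 3.82 and 8.05 to 0.774, 0.448 and 0.286 CPM (-3.98 ± 0.52). In jasmonate genes 8 of 31 tested members rose and 8 fell (6 and 10 without WT 24 h replicate 3), with a median log2 fold change of -0.08 (-0.15 without it). At 25.8% each, these counts were near the 24.6% higher and 23.1% lower among all genes tested. The synthesis gene AOC4 (AT1G13280) changed by -1.29 ± 0.13 and the repressor gene JAZ9 (AT1G70700) by 1.00 ± 0.14. The count of rises in that list was 4 when WT 0 h replicate 2 or 3 or WT 24 h replicate 2 was left out, and 5 when WT 0 h replicate 1 was. Cytokinin genes were mixed: 4 of 33 tested members rose and 10 fell (4 and 10 without WT 24 h replicate 3), with a median log2 fold change of 0.09 (-0.04 without it). Their shares were 12.1% and 30.3%, beside the same background. ARR3 (AT1G59940), a response regulator induced by cytokinin, went from 5.45, 5.91 and 6.38 to 0.285, 0.423 and 0.0715 CPM (-4.50 ± 0.47).

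Most surface lipid genes fell. Of the cuticle and wax genes 4 of 37 tested members rose and 23 fell (3 and 24 without WT 24 h replicate 3), with a median log2 fold change of -0.71 (-0.80 without it). WSD1 (AT5G37300), which makes wax esters, was at 21.5, 29.5 and 28.5 CPM in the dark, 2.43, 3.96 and 2.94 CPM at 12 h and 0.204, 0.0994 and 0.524 CPM at 24 h (-6.58 ± 0.36, adjusted p = 9.6e-10; -7.41 without WT 24 h replicate 3). CER4 (AT4G33790), the reductase that makes primary alcohols of wax, had 11.6, 14.6 and 14.2 CPM in the dark and 2 counts in all 3 light libraries. Its level in the dark was 883-fold (95% exact Poisson interval of the counts 244 to 7290.3) that in light. As for PORA, the interval is too narrow, since mates were counted singly. The cutin gene GPAT8 (AT4G00400) went from 92.5, 95.2 and 96 to 29.8, 26.4 and 28.8 CPM (-1.74 ± 0.10) and the hydroxylase gene CYP86A4 (AT1G01600) from 36, 38.5 and 34.2 to 4.36, 2.64 and 2.41 CPM (-3.52 ± 0.20). CER7 (AT3G60500), an exosome subunit that promotes wax synthesis, rose (0.51 ± 0.09, adjusted p = 0.00012).

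Glucosinolates are sulphur compounds that myrosinases such as PYK10 cleave in defence. Of the synthesis genes 21 of 29 tested members rose and 3 fell (20 and 3 without WT 24 h replicate 3), with a median log2 fold change of 1.61 (1.45 without it). The rises named belong to the aliphatic branch, made from methionine. CYP83A1 (AT4G13770), of the core pathway, rose from 0.904, 0.475 and 0.4 to 41.4, 31.5 and 23.5 CPM, with 11.4, 10.4 and 11.5 CPM at 12 h (5.76 ± 0.39, adjusted p = 8.9e-09). MAM3 (AT5G23020), which lengthens the side chain, rose from 4.5, 2.42 and 2.8 through 14, 20.1 and 18.3 at 12 h to 81.7, 60.4 and 67.8 CPM (4.43 ± 0.31). For both genes the libraries of the 3 times did not overlap. The isomerase subunit genes IPMI1 (AT3G58990) and IPMI2 (AT2G43100) changed by 2.98 ± 0.20 and 4.45 ± 0.31. CYP79B3 (AT2G22330), of the indolic branch made from tryptophan, fell from 107, 123 and 128 to 101, 91 and 71.1 CPM (-0.44 ± 0.11, adjusted p = 0.0041), and so did FMO GS-OX2 (AT1G62540), of side-chain oxidation (-1.70 ± 0.35). In the list of PYK10 and its bodies 3 of 15 tested members rose and 3 fell (2 and 3 without WT 24 h replicate 3), with a median log2 fold change of -0.07 (-0.18 without it). BGLU18 (AT1G52400), a beta-glucosidase of leaf bodies, fell from 45.4, 41.9 and 39.2 to 9.12, 9.4 and 8.67 CPM (-2.22 ± 0.17) and GLL22 (AT1G54000), a lipase-like partner of PYK10, rose from 7.52, 9.71 and 7.52 to 39.2, 32.7 and 54.7 CPM (2.35 ± 0.21).

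Of the iron genes 13 of 25 tested members rose and 3 fell (14 and 3 without WT 24 h replicate 3), with a median log2 fold change of 0.77 (0.82 without it). The ferritin gene FER4 (AT2G40300) went from 15.6, 13.2 and 13.4 to 27.9, 32.8 and 36.5 CPM (1.21 ± 0.12) and the nicotianamine synthase gene NAS4 (AT1G56430) from 5.3, 6.65 and 3.115 to 29.4, 24.7 and 25.9 CPM (2.41 ± 0.24, adjusted p = 6.9e-07). VIT1 (AT2G01770), a vacuolar iron importer, had no read in light and was at 0.69, 0.689 and 0.4 CPM in the dark. That was at least 26-fold higher against a floor of 3 counts over the 3 libraries, with mates counted singly. In phosphate starvation and galactolipid genes 6 of 24 tested members rose and 3 fell (6 and 3 without WT 24 h replicate 3), with a median log2 fold change of 0.07 (0.00 without it). The acid phosphatase gene PAP17 (AT3G17790) fell (-1.57 ± 0.14) and the phosphate exporter family gene PHO1;H1 (AT1G68740) rose (1.17 ± 0.09). In the list of enzymes against reactive oxygen 8 of 17 tested members rose and 2 fell (9 and 1 without WT 24 h replicate 3), with a median log2 fold change of 0.55 (0.77 without it). The chloroplast ascorbate peroxidase genes SAPX (AT4G08390), from 85.7, 79.4 and 72.4 to 175, 181 and 199 CPM (1.23 ± 0.09), and TAPX (AT1G77490) (1.17 ± 0.15) rose.

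Among regulators of adventitious and lateral roots 9 of 25 tested members rose and 3 fell (6 and 3 without WT 24 h replicate 3), with a median log2 fold change of 0.21 (0.07 without it). Their shares were 36.0% and 12.0%, beside a background of 24.6% higher and 23.1% lower among all genes tested. PLT1 (AT3G20840), a root meristem factor, rose from 0.285, 0.237 and 0.222 to 0.611, 1.34 and 1.38 CPM (2.14 ± 0.38). PUCHI (AT5G18560), of young lateral root primordia, was at 0.904, 0.475 and 0.578 CPM in the dark and 3.62, 3.01 and 13.3 CPM in light, so that replicate 3 was the high one (3.34 ± 0.64; 2.32 without it, adjusted p = 0.0024). In cell cycle and DNA replication 13 of 46 tested members rose and 4 fell (11 and 3 without WT 24 h replicate 3), with a median log2 fold change of 0.29 (0.18 without it). None of the rises reached 2-fold, and the count of rises was 8 without WT 0 h replicate 3. With shares of 28.3% and 8.7%, the rises were near the background. MCM5 (AT2G07690), of the replicative helicase, went from 30.3, 32.8 and 28.6 to 50.5, 44.3 and 46.5 CPM (0.62 ± 0.10), while CYCD1;1 (AT1G70210), a cyclin of the entry into the cycle, fell (-0.87 ± 0.17). Of shoot meristem and leaf markers 3 of 22 tested members fell and the other 19 were not called (3 without WT 24 h replicate 3), with a median log2 fold change of -0.11 (0.01 without it). The falls, at 13.6%, were below the background. The meristem gene STM (AT1G62360) fell from 22.4, 27.4 and 18.5 to 8.63, 6.19 and 3.05 CPM (-1.93 ± 0.32), replicate 3 being the lowest, and the epidermal factor gene GL2 (AT1G79840) from 10.4, 11 and 9.54 to 1.45, 1.14 and 1.62 CPM (-2.87 ± 0.27). In the stomatal lineage 2 of 17 tested members rose and 2 fell (2 and 3 without WT 24 h replicate 3), with a median log2 fold change of -0.35 (-0.14 without it). Both counts, at 11.8%, were below the background. The guard cell channel gene KAT1 (AT5G46240) fell (-2.91 ± 0.35) and MYB60 (AT1G08810), a guard cell factor, rose (2.44 ± 0.37). Seed storage genes were mostly untested: 2 of 3 tested members fell and the other was not called (2 without WT 24 h replicate 3), with a median log2 fold change of -1.55 (-0.79 without it), 10 more having too few counts. The oleosin gene OLEO3 (AT5G51210) went from 11.7, 10.4 and 9.9 to 0.366, 0.249 and 0 CPM (-5.65 ± 0.53; -6.43 without WT 24 h replicate 1).

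**Figure D4:**
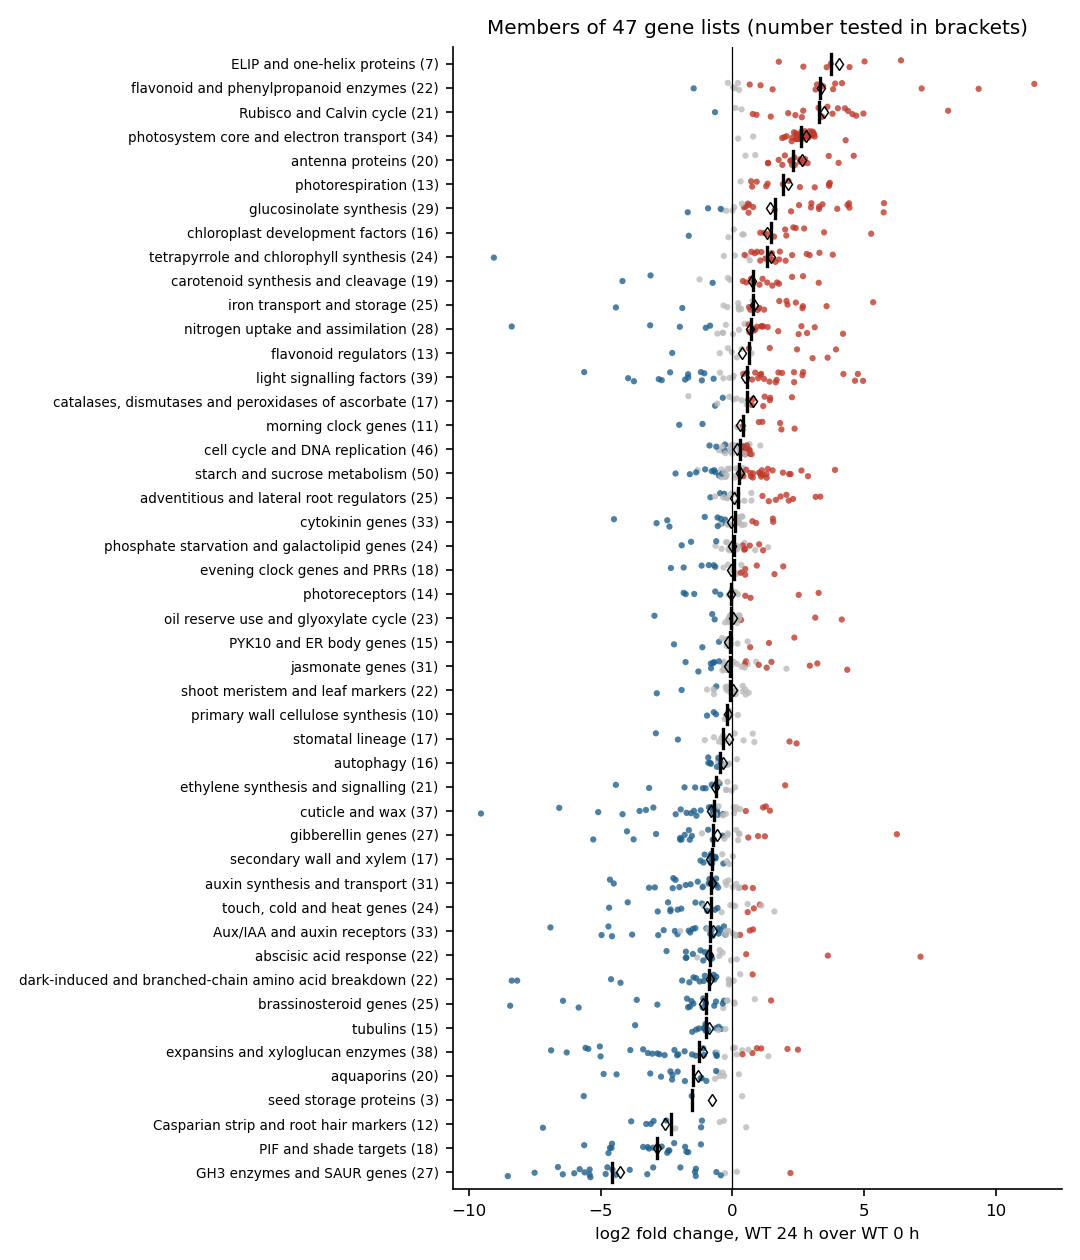
Log2 fold changes (24 h over 0 h) of the tested members of 47 gene lists, ordered by median, with called rises in red, called falls in blue and the rest in grey. The black bar is the median of the list and the diamond its median without WT 24 h replicate 3, members with no read in a group being in the median but not drawn. ELIP and one-helix proteins (3.74) stand highest and GH3 and SAUR genes (-4.56) lowest. Flavonoid enzymes (3.33, or 3.19 with members lacking dark reads at their bounds) and the Rubisco and Calvin cycle genes (3.27) lie close together.

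Some transcripts appeared or vanished. A total of 42 called rises had no read in any dark library and 57 called falls had none in any light library. AT2G15020, of unknown function, had no read in the dark and 15.1, 16 and 32.1 CPM in light, at least 906-fold higher. AT3G44970, a cytochrome P450 gene, was at 17.8, 18.3 and 11.4 CPM in light (at least 682-fold higher). The anthocyanin gene DFR (AT5G42800) was at 3.36, 12.3 and 3.86 CPM in light, replicate 2 being the highest (at least 280.1-fold higher, or 155-fold without that replicate), and GPX7 (AT4G31870), a chloroplast glutathione peroxidase, at 4.58, 7.18 and 4.05 CPM (at least 227-fold higher). PIN5 (AT5G16530), which moves auxin into the endoplasmic reticulum, was at 3.5, 3.41 and 2.67 CPM in light, at least 137-fold higher. CYP78A10 (AT1G74110), of a P450 family linked to organ growth, had 16.5, 23 and 19.3 CPM in the dark and no read in light, at least 858-fold lower. The ethylene synthesis gene ACS4 (AT2G22810) was at 5.64, 7.36 and 6.54 CPM in the dark and at least 285-fold lower in light, and SAUR19 (AT5G18010) at 5.3, 5.1 and 6.76 CPM and at least 251-fold lower. These bounds are set by a floor of 3 counts over the 3 libraries of a group. Each mate was counted, so 3 counts can be fewer than 3 fragments. A floor of 3 fragments would give lower bounds, and the true folds may be smaller than those given.

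The 24 h state was set against 12 h of light, since both changes from darkness use the same dark libraries and only the direct contrast tests their difference. It called 1902 genes, 9.08% of those tested, and this count depended strongly on the libraries. It was 964 (4.47%) without WT 24 h replicate 3 and WT 12 h replicates 2 and 3, which correlate with each other, where the lone 12 h library is assumed to vary like the other groups. It was 11326 (53.4%) without WT 12 h replicate 1 and WT 24 h replicate 3, an alternative chosen after seeing the data, which sets WT 12 h replicates 2 and 3 against WT 24 h replicates 1 and 2 (r = 0.9351 to 0.958 between them). With the 6 libraries fitted alone it was 111. Without WT 12 h replicate 1 it was 4270 higher and 4009 lower, without WT 24 h replicate 3 it was 2066 and 3377, and without either other WT 24 h library 350 or 351 and 585 or 588. Among all genes tested 3.67% were higher and 5.41% lower at 24 h than at 12 h. MAM3 was higher at 24 h (2.0 ± 0.28, adjusted p = 0.00031; 2.34 and 0.0046 without the first 3 libraries above), as were 10 of the 29 glucosinolate genes in all. CRY3 was lower at 24 h (-0.98 ± 0.14, adjusted p = 0.00057; -1.08 and 0.0014 without them), and WSD1 as well (-3.49 ± 0.35, adjusted p = 1.7e-05; -3.94 and 2.5e-05). TIP1;2 (-0.20 ± 0.15, adjusted p = 0.41) and XTH19 (0.14 ± 0.31, 0.79) were not called between these times, nor with the first 3 or the other 2 libraries left out, though XTH19 then stood at 0.42 and -0.41. PYK10 was not called either (0.07 ± 0.23, 0.87), but its sign and call depended on the libraries: it was at 0.45 (adjusted p = 0.20) without the first 3 and lower at 24 h (-0.43, adjusted p = 0.043) without WT 12 h replicate 1 and WT 24 h replicate 3.

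Whether the change from dark at 24 h differed in hy1 was tested as an interaction. It was called for 1816 genes, 8.67% of those tested, 1085 with a positive value (a smaller fall or larger rise in hy1) and 731 with a negative one. Beside 5.18% positive and 3.49% negative of all genes tested, 24 of 27 GH3 and SAUR genes had a positive interaction, among PIF and shade targets 13 of 18, among cuticle and wax genes 20 of 37, among aquaporins 9 of 20 and among expansins and XTH genes 13 of 38, with 3 negative in the last. More negative than positive values were found in other lists, among them 8 of 21 ethylene genes against 4 positive, 7 of 24 touch, cold and heat genes against 1, 7 of 31 jasmonate genes against 3, 5 of 25 iron genes against 0, and 4 of 22 flavonoid enzymes against 0. In the apparatus of photosynthesis few members were called: 2 of 20 antenna genes and 1 of 34 genes of the photosystem core, all positive. TIP1;2 fell less in hy1 (interaction 1.2 ± 0.21, adjusted p = 0.0022) and GRP9 rose less (-2.28 ± 0.29, adjusted p = 0.00014). For GLK1 the interaction was 2.62 ± 0.32 (adjusted p = 0.0001). For RCA it was -0.06 ± 0.32 (adjusted p = 0.94). An interaction compares changes, and the dark levels of the genotypes could also differ, in either direction. SAUR23 was at 2.91 ± 0.34 CPM in dark hy1 and 12.2 ± 2.2 CPM in dark WT (SD, n = 3). TIP1;2 was at 10134 ± 333 CPM in dark hy1 and 8726 ± 745 CPM in dark WT. The part of dark levels in these interactions was not tested. The hy1 libraries carry another treatment name in their titles, and a treatment that differed along with the genotype cannot be told apart from it.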

How the data were processed

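Poly-A RNA of hypocotyls was sequenced in 18 libraries, and the contrast described here uses 6 of them. The deposited gene counts were made with featureCounts 2.0.3 on a tair10 annotation, per the file headers, with each mate counted, without strand and without reads that map to several places. Reads of overlapping or antisense genes therefore cannot be told apart, and copies of gene families may be divided wrongly. The submitters' processing notes also name STAR 2.7.8a, StringTie 2.1.3 and HTSeq, with no role stated. The deposited FPKM values were 10 times the FPKM recomputed from the counts, and served in alternatives only. Deposited coordinates lay within the chromosomes of RefSeq TAIR10.1, and of the 32548 genes found there by locus 99.95% had the same start and end. Promoter sequences are from RefSeq TAIR10.1 and gene symbols mostly so, with names of common use for some genes. Another promoter that met the rule for those shown is not reported here.

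Counts were fitted with edgeR 4.0.16 (R 4.3.3) by its quasi-likelihood test, with 6 group means over all 18 libraries, TMM factors and filterByExpr. P-values were adjusted by Benjamini-Hochberg over the 20955 genes tested, and a gene was called at an adjusted p under 0.05. CPM are counts scaled by TMM-corrected library size, and TPM were computed from counts and exon lengths. Counts with n = 3 per group limit the precision, and intervals cover counting error only. They take the mates of a fragment as independent counts and are therefore too narrow. Alternatives were DESeq2 1.42.0, limma 3.58.1 (with voom weights, or on log2 FPKM plus 1 or 0.1), other scaling and filters, and libraries left out. Genes named are the 15 largest rises and falls of at least 5 CPM whose groups do not overlap, the 12 largest gains and losses of TPM, the 10 of highest TPM in each group, up to 4 called members of each of 47 lists with the smallest adjusted p and up to 2 that went against the list, HY1, HO2 and HY2, and 5 genes with no read per direction. XTH17, RCA and GH3.9 are list members, and not every gene so chosen is described. The members, lists and rules were chosen with earlier results of these data known.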

Additional observations from a re-analysis of the deposited data

Results flagged for a closer look

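Among the 53 genes with the largest changes by fold or by TPM, 28 differed between genotypes in their change from dark to 24 h of light, by the interaction in the edgeR fit (adjusted p from 2e-06 to 0.049), beside 8.67% of all genes tested. These genes were chosen for their large change in the same WT libraries that enter the interaction, which favours a smaller change in hy1, so that their count and direction are a description. The values here are log2 differences of that change, hy1 minus WT, and 20 were positive and 8 negative. For genes with few or no reads in a group of WT the fitted size depends on the prior count: CYP78A10 (8.34), ACS5 (7.38), CER4 (6.78), AT2G19660 (6.69), AT1G04660 (8.60), SAUR23 (7.86), AT5G37950 (6.93) and PRE1 (7.96). CYP78A10 stood at 1.31 ± 0.39 CPM in dark hy1 and 0.0564 ± 0.0491 CPM in hy1 at 24 h (SD, n = 3), where WT had no read. PRE1 stood at 1.57 ± 0.566 and 1.13 ± 0.283 CPM in hy1, against 11.6 ± 0.78 and 0.0332 ± 0.0574 CPM in WT, so that its dark levels also differed.

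Other genes that fell in WT had positive values: UMAMIT4 (4.76), AT4G12520 (4.09), AT4G12510 (3.87), ASN1 (3.55), AT2G10940 (3.47), MDP40 (2.65), FLA9 (2.28), AT4G11320 (1.66), MLP34 (1.59), AT1G12080 (1.39), TIP1;2 (1.195) and PIP1;3 (1.09). TIP1;2 went from 10134 ± 333 to 3545 ± 413 CPM in hy1, a fall as in WT but smaller. AT4G11320 was at 2773 ± 344 and 3062 ± 391 CPM in hy1, and at 2670.3 ± 247 and 935 ± 84.8 CPM in WT.

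The negative values were those of genes that rose in WT: AT2G05510 (-3.48), EARLI1 (-2.97), AZI1 (-2.31), GRP9 (-2.28), GA3OX2 (-1.81), SDR1 (-1.41), MSRB6 (-1.25) and XTH31 (-0.87). AT2G05510 was at 2012 ± 375 and 1032 ± 162 CPM in hy1, against 205 ± 21.8 and 1172 ± 210.1 CPM in WT. AZI1 was at 2755 ± 248 and 1898 ± 199 CPM in hy1, against 1654 ± 78.5 and 5645 ± 3031 CPM in WT, where replicate 3 was the highest at 24 h. WT and hy1 libraries carry different treatment names, and these cannot be told apart from genotype.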

How the results depend on the processing

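The counts of genes higher and lower at 24 h than at 0 h stayed within 1.5 times of 5159 and 4842 under every other scaling, filter, test and left-out library tried. They were 5342 and 5238 with DESeq2, 4693 and 5146 with limma on log2(FPKM + 0.1), 6909 and 6718 with voom weights, and 4552 and 4321 with the 6 libraries fitted alone. They ranged from 4283 to 4919 and from 4233 to 4860 with 1 library left out, and were 2294 and 2150 at a fold of at least 2. Upper-quartile scaling gave 4841 and 5081. With the replicate number as a block they were 5140 and 4933, and the numbers did not pair the libraries (r of deviations from group means 0.0542, -0.0362 and 0.0425 for numbers 1 to 3).

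Against 12 h, genes higher and lower at 24 h (769 and 1133) were 1262 and 1714 with DESeq2, 5888 and 5829 with voom weights and 24 and 87 with the groups fitted alone. Leaving out WT 24 h replicate 3 with WT 12 h replicates 2 and 3 gave 341 and 623. Leaving out WT 12 h replicate 1 with WT 24 h replicate 3, an alternative chosen after seeing the data, gave 5477 and 5849. At an adjusted p under 0.01 they were 250 and 516, at a fold of at least 2 they were 262 and 436, and with 1 library left out from 350 to 4270 and from 585 to 4009. The positive and negative interactions with genotype (1085 and 731) were 2306 and 2048 with voom weights, 1980 and 1588 without the same 3 libraries and 544 and 292 at an adjusted p under 0.01. At a fold of at least 2 there were 404 negative ones, and with 1 library left out from 806 to 1032 and from 406 to 668. The cause was not tested.

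Of 266 genes named, 8 called ones lost their call when 1 library or another was left out, GRP3S, CP12-3 and IAA27 among them. A change of sign occurred for 3 genes that were not called in any of these settings. AT4G23670 was at -0.087 without the same 3 libraries and from -0.11 to 0.196 with 1 library left out, lowest without WT 24 h replicate 3, with -0.044 and -0.041 when a dark library was dropped. PBP1 was at 0.156 with voom weights, 0.172 without the same 3 libraries and from -0.22 to 0.149 with 1 library left out. AT1G09310 ranged from -0.165 to 0.026 with 1 library left out, 0.011 being the other value above 0. Depth limits the genes at or near 0 in a group, where only bounds or counting intervals are given.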

Other observations

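Ribosomal protein genes were chosen as a group after the shares of promoter motifs were seen, so the values are a description. They were picked by the words ribosomal protein in the product name, whatever else it said and whichever compartment the ribosome belongs to. Of 317 such genes tested, 140 rose and 7 fell at 24 h against darkness, beside 24.6% and 23.1% of all genes tested. Their median log2 fold change was 0.52, with quartiles of 0.33 and 0.71, beside 0.02 for all genes. The telo-box AAACCCTA stood in the promoters of 44 of them (13.9%), beside 4.61% of all promoters. Among tested genes it was in 5.08% of rises, 1.98% of falls and 3.63% of those not called. Over all 753 tested genes with that motif, 262 rose and 96 fell, with a median of 0.32, and 17 of the 262 were ribosomal protein genes.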
